A study of Rattus norvegicus with 6 samples.

Results

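The core circadian clock genes were followed in rat myocardium after myocardial ischemia/reperfusion. The set held 10 genes, taken by their names from an expression table of 28293 genes, and all 10 passed the filter on low values that left 10942 genes for testing. They were Arntl (which encodes BMAL1), Clock, Npas2, Per1, Per2, Per3, Cry1, Nr1d1, Nr1d2 and Dbp. On the deposited scale Nr1d1 and Dbp passed the test as higher in the I/R hearts than in the Sham hearts. Neither passed under quantile normalization, without the mitochondrial mRNAs, or without the Sham rat in which both were lowest. Centred on cardiomyocyte markers, their log2 fold changes (I/R minus Sham) were −0.47 and −0.039. Arntl and Npas2 were lower in every I/R rat than in any Sham rat without passing the test. Of all genes tested, 13% were separated in that direction. The Sham rats themselves differed widely in these genes.

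RNA was sequenced from 6 samples of myocardial tissue from male wild-type (WT) rats, 3 in the Sham group and 3 in the I/R group. Each numbered sample is called a rat here, although the labels do not state that every sample came from a separate animal. In the I/R group the left anterior descending coronary artery was tied for 30 min, and the heart was taken after 6 h of reperfusion. The study's methods gave sham-operated and reperfused rats the same phosphate-buffered saline vehicle by the caudal vein. The titles carry the same times for the Sham rats, and the treatment of a Sham rat is described no further in the labels. All rats lived under a 12-h light/dark cycle with free access to food. The clock time at which each heart was taken, the age of the rats and the part of the heart that was sampled are not given in the sources used here. A difference in collection time and a difference in treatment therefore cannot be told apart from these labels, and the same holds for fewer cells of a type and less RNA per cell in such whole-tissue samples.

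The circadian clock is a transcription loop that runs in nearly every cell, the cardiomyocyte included. BMAL1 pairs with CLOCK, or with its relative NPAS2, and binds E-box sequences to switch on the Per, Cry, Nr1d and Dbp genes. PER and CRY proteins then repress that pair, and the nuclear receptors encoded by Nr1d1 and Nr1d2 (REV-ERB alpha and beta) repress Arntl, Clock and Npas2 through ROR response elements (RORE). Arntl and Npas2 transcripts therefore peak at the opposite time of day from Nr1d1 and Dbp in rodent tissues kept under a light/dark cycle.

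Promoters of these genes, searched for short sequences that clock proteins can bind, are shown first, because the members are read against each other throughout. RefSeq promoters of the rat assembly GRCr8, from 250 bases before to 50 bases after the start site, were found for 9 of the 10 members (Arntl under the name Bmal1, and Clock and Nr1d1 with 2 promoters each). Both strands were searched for the E-box CACGTG, its variant CACGTT, the D-box TTATGTAA and its variant TTACGTAA, which are bound by DBP and its relatives, the RORE core AGGTCA and the cyclic AMP response element TGACGTCA. No match overlapped another in the promoters printed here, and positions count from the start site to the first base of a match. The Arntl promoter held the RORE core at −15, Per2 held the D-box at −192 and CACGTT at −62, and the second Nr1d1 promoter held the E-box at −191. Ciart, a clock repressor outside the member list, is shown for its E-boxes at −93, −35 and −21, since its transcript differed most between the groups among the further clock genes. Each promoter is written 5′ to 3′ on the gene's own strand, with the matched letters in capitals.
Arntl, chr1:176766078-176766377, plus strand: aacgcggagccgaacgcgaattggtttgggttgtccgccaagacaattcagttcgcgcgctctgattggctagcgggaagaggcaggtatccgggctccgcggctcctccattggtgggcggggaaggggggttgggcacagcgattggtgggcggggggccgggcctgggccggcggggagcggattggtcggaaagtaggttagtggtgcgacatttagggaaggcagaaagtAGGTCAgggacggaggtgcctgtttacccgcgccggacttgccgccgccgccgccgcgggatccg
Per2, chr9:99496944-99497243, minus strand: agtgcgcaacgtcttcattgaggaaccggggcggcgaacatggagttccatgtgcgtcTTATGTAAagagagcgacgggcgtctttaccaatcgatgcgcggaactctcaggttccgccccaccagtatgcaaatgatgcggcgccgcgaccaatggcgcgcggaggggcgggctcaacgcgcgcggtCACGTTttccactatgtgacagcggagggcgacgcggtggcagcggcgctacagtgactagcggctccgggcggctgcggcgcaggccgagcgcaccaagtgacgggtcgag
Nr1d1, second promoter, chr10:84229405-84229704, minus strand: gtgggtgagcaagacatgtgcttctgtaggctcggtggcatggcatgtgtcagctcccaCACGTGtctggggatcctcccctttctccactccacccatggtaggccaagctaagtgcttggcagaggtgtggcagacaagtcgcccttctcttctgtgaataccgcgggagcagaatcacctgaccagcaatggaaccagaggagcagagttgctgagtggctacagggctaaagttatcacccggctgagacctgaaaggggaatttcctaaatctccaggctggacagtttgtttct
Ciart, chr2:186112197-186112496, minus strand: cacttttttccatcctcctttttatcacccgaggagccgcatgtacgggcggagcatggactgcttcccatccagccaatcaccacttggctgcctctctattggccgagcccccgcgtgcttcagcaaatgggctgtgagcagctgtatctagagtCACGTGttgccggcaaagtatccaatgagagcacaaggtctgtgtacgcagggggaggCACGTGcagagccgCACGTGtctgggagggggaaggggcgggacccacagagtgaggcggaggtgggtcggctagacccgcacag

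The first Nr1d1 promoter held CACGTT on its minus strand at −174, and the Nr1d2 promoter held the RORE core at −187. None of the searched letters stood in the promoters of Clock, Npas2, Per1, Per3 or Dbp within this window. Of 15 further clock genes with a promoter, 5 held CACGTG, namely Ciart, Tef, Bhlhe40, Bhlhe41 and Gsk3b. Among 33469 rat promoters of the same length, CACGTG was found in 6.42%, CACGTT in 4.83%, TTATGTAA in 0.893%, TTACGTAA in 0.12%, AGGTCA in 16.2% and TGACGTCA in 1.83%. A match describes the letters of the promoter and is no measurement of binding.

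Expression was deposited as FPKM, fragment numbers divided by transcript length and library size, which allows levels to be compared between genes. Groups were compared with limma on log2(FPKM + 0.1), a scale that understates the changes of low genes, and a gene was called at an adjusted p under 0.05. The 13 mRNAs encoded by the mitochondrial genome took 80.1% to 86.2% of all FPKM in the Sham hearts and 61.8% to 71.5% in the I/R hearts. Of 7 tested cardiomyocyte markers 6 were higher in I/R, and their summed level ran from 3283 to 10679 FPKM in Sham and from 21566 to 31139 FPKM in I/R. The summed fibroblast markers ran from 419 to 578 FPKM in Sham against 594 to 656 in I/R, neutrophil and monocyte markers from 63.4 to 76.6 against 89.2 to 150, and endothelial markers from 173 to 227 against 170 to 213. Smooth muscle and pericyte markers summed to 85.2 to 277 FPKM in Sham and 141 to 335 in I/R, and red cell markers to 1131 to 1262 against 605 to 1752. Some of these sums join genes that moved in opposite directions. In the smooth muscle and pericyte list Rgs5 was called higher (log2 fold change 1.37) and Pdgfrb lower (−0.68). Of 7 tested neutrophil and monocyte markers 3 were called higher. Ly6c (−0.54) and Fcgr3a (−0.84) of that list had negative log2 fold changes and were not called. Adipocyte markers summed to 541 to 1329 against 255 to 569, nearly all of it Fabp4, the only 1 above the filter. The others, Adipoq, Plin1, Cidec and Lep, were near the floor and had higher means in I/R (Adipoq 0.070 FPKM in Sham and 0.65 in I/R). The defining myocardial markers were thus present in all 6 samples, and the part of this shift in the clock genes was not tested. The median log2 fold change (I/R minus Sham) of all genes tested was 0.29, and it became 0.48 as TPM, −0.46 without the mitochondrial mRNAs and −1.94 when samples were centred on the cardiomyocyte markers.

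**Figure D1:**
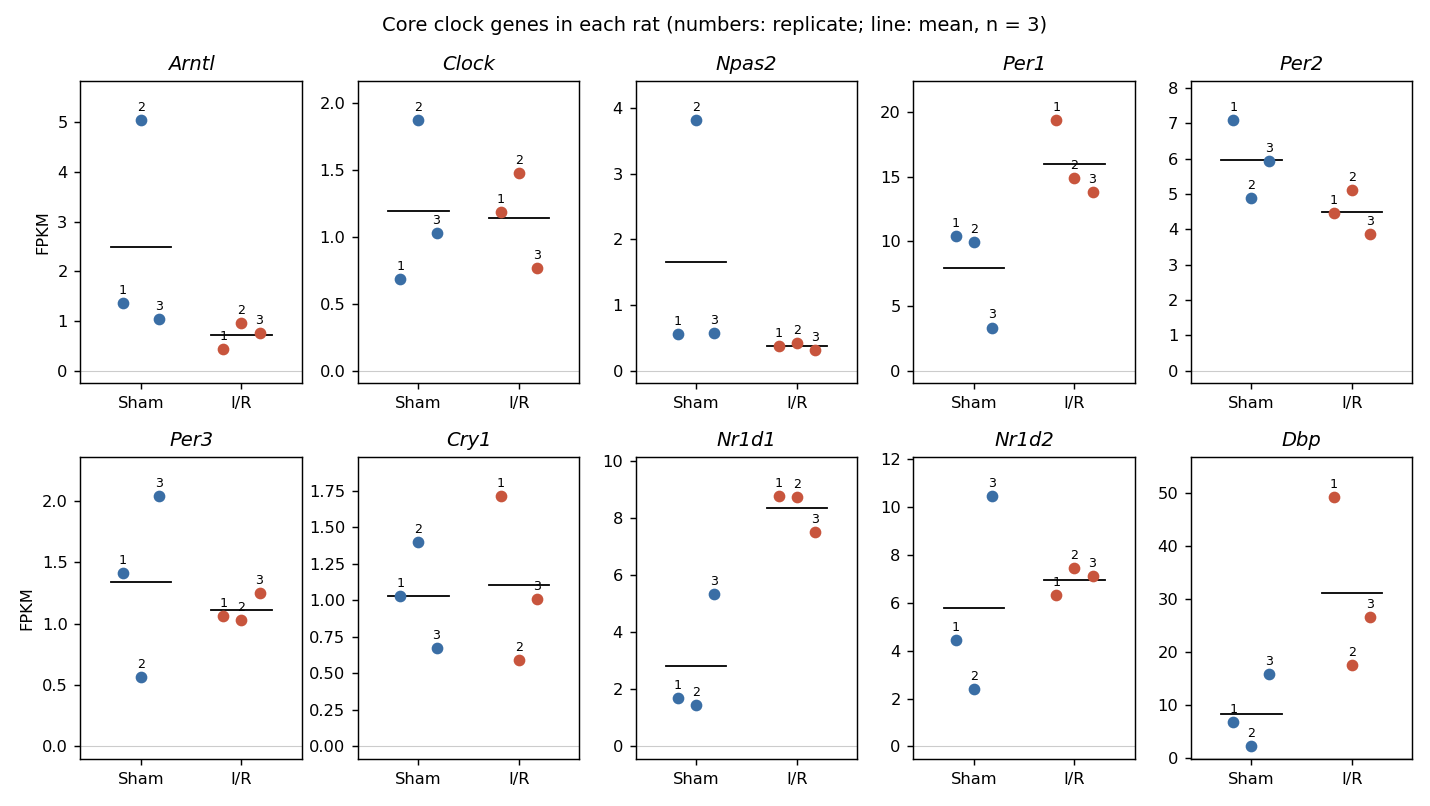
Level of each of the 10 core clock genes in FPKM, on linear axes that differ between panels, with 1 point per rat labelled by replicate number and a black line at the mean of 3 samples. Nr1d1, Dbp and Per1 lie higher in every I/R rat than in any Sham rat, Arntl and Npas2 lie lower, and the other 5 genes overlap.

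Arntl encodes the obligate partner of the activating pair. Its level was 1.37, 5.05 and 1.03 FPKM in Sham rats 1, 2 and 3, and 0.434, 0.958 and 0.752 FPKM in I/R rats 1, 2 and 3. All I/R rats lay below all Sham rats, but the Sham mean was carried by Sham 2. The mean was 2.48 ± 2.23 FPKM in Sham and 0.715 ± 0.264 FPKM in I/R (SD, n = 3 each). The log2 fold change was −1.38 (SE 0.52, 95% CI −2.55 to −0.22) with a limma adjusted p of 0.067, so Arntl was not called. With the replicate number as a block the limma adjusted p was 0.016, and without Sham 2 the log2 fold change was −0.72 with an adjusted p of 0.19.

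Npas2 encodes a relative of CLOCK that can take its place beside BMAL1. It was at 0.560, 3.82 and 0.566 FPKM in Sham rats 1, 2 and 3, and at 0.381, 0.427 and 0.321 FPKM in I/R rats 1, 2 and 3. The I/R rats again lay below all Sham rats, and Sham 2 stood far above the other 2 Sham rats. The log2 fold change of −1.34 (SE 0.62, 95% CI −2.73 to 0.05) had a limma adjusted p of 0.12, and without Sham 2 it was −0.48. The I/R values rested on few fragments, 51 to 72 per rat as recovered from the FPKM steps.

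Clock, the partner of BMAL1 in most tissues, showed no such separation. It was at 0.684, 1.88 and 1.03 FPKM in Sham rats and at 1.19, 1.48 and 0.765 FPKM in I/R rats. The groups overlapped, with a log2 fold change of 0.0031 (95% CI −0.85 to 0.85), an interval that leaves room for a change of either sign.

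The repressors of the first loop are the period and cryptochrome genes. Per1, which is also induced quickly by cyclic AMP and glucocorticoid signals, was at 10.4, 9.92 and 3.34 FPKM in Sham rats and at 19.4, 14.9 and 13.8 FPKM in I/R rats. Every I/R rat exceeded every Sham rat, and the gap was widest to Sham 3. The mean was 7.90 ± 3.96 FPKM in Sham and 16.0 ± 2.98 FPKM in I/R (SD, n = 3 each). The log2 fold change of 1.16 (SE 0.40, 95% CI 0.26 to 2.06) had a limma adjusted p of 0.0505, just outside the threshold. It was inside with the replicate block (limma adjusted p = 0.011), and also in the fit with voom, limma's method for counts, on recovered fragments (adjusted p = 0.033). The voom fit took its library sizes from the relative depths behind the FPKM, so it kept their scale and is no independent check of it. Without Sham 3 the log2 fold change was 0.63.

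Per2, the period gene whose product sits at the centre of the repressive complex, was at 7.09, 4.88 and 5.93 FPKM in Sham rats and at 4.46, 5.11 and 3.87 FPKM in I/R rats. The groups overlapped only through I/R 2, which lay above Sham 2. Its log2 fold change was −0.40 (95% CI −0.92 to 0.12), opposite in sign to that of Per1, with a limma adjusted p of 0.21. Per3 was at 1.41, 0.567 and 2.05 FPKM in Sham rats and at 1.06, 1.03 and 1.25 FPKM in I/R rats, so that all I/R values fell inside the Sham range. Cry1 was at 1.03, 1.40 and 0.671 FPKM in Sham rats and at 1.72, 0.589 and 1.01 FPKM in I/R rats, and here the I/R values reached beyond both ends of the Sham range. The 95% CI of the log2 fold change ran from −0.99 to 0.79 for Per3 and from −0.86 to 0.92 for Cry1.

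Nr1d1 encodes REV-ERB alpha, the repressor that closes the second loop on Arntl. Its level was 1.70, 1.47 and 5.35 FPKM in Sham rats and 8.80, 8.74 and 7.51 FPKM in I/R rats. The I/R rats lay close together and above all Sham rats, of which Sham 3 came nearest. The mean rose from 2.84 ± 2.17 FPKM in Sham to 8.35 ± 0.724 FPKM in I/R (SD, n = 3 each). The log2 fold change was 1.76 (SE 0.42, 95% CI 0.83 to 2.69) with a limma adjusted p of 0.012, and without Sham 2 it was 1.43 with an adjusted p of 0.056. Thra, which overlaps Nr1d1 on the opposite strand in the RefSeq annotation, had a log2 fold change of 0.62 with a limma adjusted p of 0.18. The library kit kept the strand, but the strand setting of the counting is not given in the sources used here. In the same annotation Clock, Npas2 and Per2 overlap long noncoding RNA genes on the opposite strand, and Cry1 overlaps an uncharacterized protein-coding locus.

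Nr1d2 encodes REV-ERB beta, the close relative of the former. It was at 4.45, 2.38 and 10.5 FPKM in Sham rats and at 6.34, 7.45 and 7.14 FPKM in I/R rats. The I/R rats fell within the Sham range, and Sham 3 was the highest of all 6. The log2 fold change was 0.52 (95% CI −0.46 to 1.50) with a limma adjusted p of 0.38. It was 1.07 (adjusted p = 0.044) without Sham 3 and 0.026 (adjusted p = 0.96) without Sham 2.

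Dbp encodes a transcription factor that passes the rhythm to output genes through D-boxes. It was at 6.70, 2.13 and 15.9 FPKM in Sham rats and at 49.2, 17.6 and 26.5 FPKM in I/R rats. All I/R rats lay above all Sham rats, although I/R 2 exceeded Sham 3 by little. The mean rose from 8.24 ± 7.0 FPKM in Sham to 31.1 ± 16.3 FPKM in I/R (SD, n = 3 each). The log2 fold change was 2.19 (SE 0.63, 95% CI 0.80 to 3.59) with a limma adjusted p of 0.024. Among the fits without 1 rat, the call was lost without Sham 1 (adjusted p = 0.052), Sham 2 (log2 fold change 1.45, adjusted p = 0.079) and I/R 1 (adjusted p = 0.088). It was also lost in limma with no filter (adjusted p = 0.083), centred on the median (0.069) and under quantile normalization (0.17). Without the mitochondrial mRNAs it was lost narrowly (limma adjusted p = 0.0503), and centred on the cardiomyocyte markers the log2 fold change was −0.039.

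**Figure D2:**
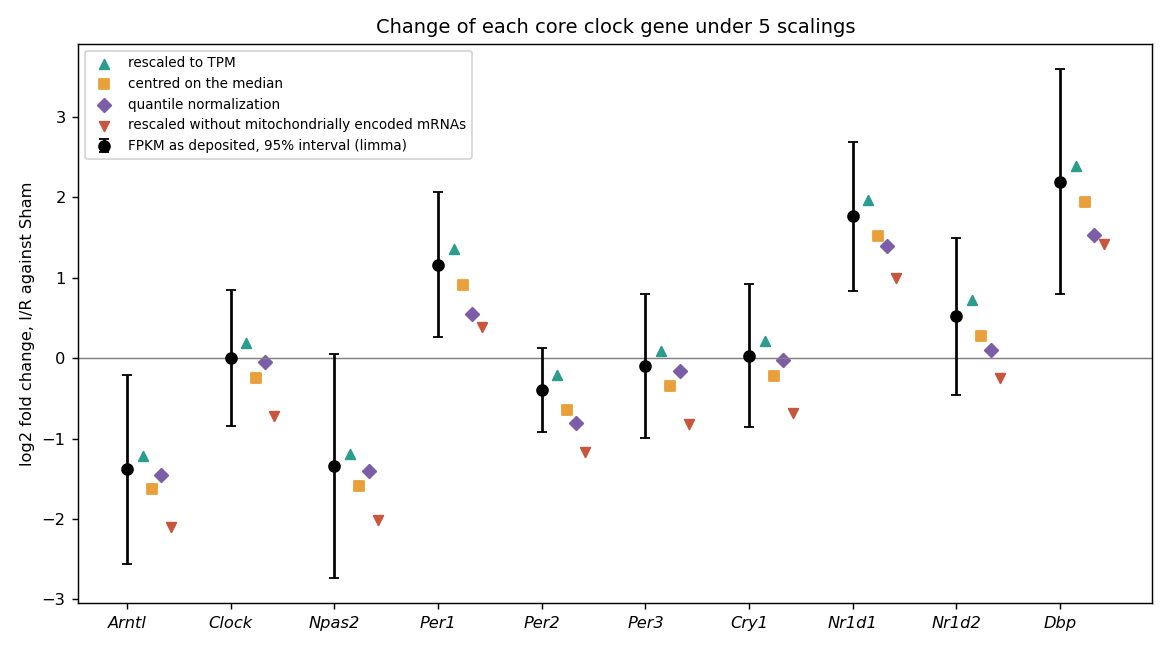
log2 fold change (I/R against Sham, y axis) of each core clock gene, with black points and 95% confidence intervals from limma on the deposited FPKM (n = 3 samples per group) and coloured points for 4 other scalings, a grey line marking no change. Under each of the 5 scalings shown Nr1d1, Dbp and Per1 lie above 0 and Arntl, Npas2 and Per2 below it, while Clock, Per3, Cry1 and Nr1d2 change sign between scalings.

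Counted together, 2 of 10 members were higher in I/R and 0 were lower. Among all genes tested, 25.5% were called higher and 7.36% lower, so the members were called no more often than genes in general. At an unadjusted p under 0.05, 3 members were higher and 1 was lower, beside 33.7% and 11% of all genes. With the replicate block 3 members were higher (Per1, Nr1d1 and Dbp) and 1 was lower (Arntl), beside 28.2% and 8.18% of all genes. With voom on recovered fragments 3 were higher and 0 lower, beside 26.7% and 7.84%. The groups did not overlap for 3 members that were higher and 2 that were lower, against 37.2% and 13% of all genes. Without Sham 2 no member was called, in a fit that called fewer of the 10942 genes tested, 1919 higher and 309 lower. With all 6 samples 2790 were called higher and 805 lower. In the exact two-sided permutation test over samples the 5 members without overlap gave 0.1, the lowest value that groups of this size can reach.

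Among all genes, 4 members lay near an end of the distribution of changes. Dbp had a higher log2 fold change than 97.6% of the genes tested and Nr1d1 than 94.4%, whereas Arntl exceeded 2.88% and Npas2 3.19%. Per1 exceeded 84.9% of the genes, and the others lay between 19.0% for Per2 and 61.5% for Nr1d2. Measured from the median of all genes, the log2 fold changes were 1.90 for Dbp, 1.47 for Nr1d1, 0.87 for Per1, −1.63 for Npas2 and −1.68 for Arntl. A scaling that shifts all genes of a sample alike leaves these distances as they are by its construction. Quantile normalization, which can move them, gave 1.55 for Dbp, 1.42 for Nr1d1, 0.57 for Per1, −1.38 for Npas2 and −1.43 for Arntl. Without Sham 2 the distances were 1.07 for Dbp, 1.05 for Nr1d1, −0.86 for Npas2 and −1.10 for Arntl, and without Sham 3 that of Per1 was 0.38. The absolute direction depended on the scale. On centring to the cardiomyocyte markers the log2 fold change was −0.039 for Dbp, −0.47 for Nr1d1 and −1.07 for Per1. Without the mitochondrial mRNAs no member was called higher, and Arntl, Npas2 and Per2 were called lower. In that scaling 793 of the 10942 genes tested were called higher and 2857 lower, so the members again followed genes in general.

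The order of levels differed between the groups. In Sham the mean levels descended from Dbp, Per1, Per2 and Nr1d2 through Nr1d1, Arntl and Npas2 to Per3, Clock and Cry1 at 1.03 ± 0.365 FPKM, and every neighbouring pair overlapped between rats. In I/R the order was Dbp, Per1, Nr1d1, Nr1d2, Per2, Clock, Per3, Cry1, Arntl and Npas2. There the rats of Dbp and Per1 overlapped, as did those of each neighbouring pair from Clock to Arntl. From Per1 to Clock each gene was separated from the next, but Nr1d1 (lowest 7.51 FPKM) and Nr1d2 (highest 7.45 FPKM) only narrowly. Arntl and Npas2 were also separated narrowly. Arntl and Npas2 stood last in the I/R order, with Npas2 at 0.376 ± 0.0532 FPKM.

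The spread between Sham rats was wide for these genes. The ratio of the highest to the lowest Sham rat was 7.44-fold for Dbp, 6.82-fold for Npas2, 4.89-fold for Arntl and 4.41-fold for Nr1d2. It was 3.64-fold for Nr1d1, 3.61-fold for Per3 and 3.13-fold for Per1, against a median of 1.50-fold over all genes tested. The Sham range of Dbp exceeded that of 99.1% of the genes tested, and the ranges of 9 of the 10 members lay above the median. Per2 was the exception at 1.45-fold.

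The I/R rats lay closer together than the Sham rats in most members. The range between rats was smaller in I/R than in Sham for 9 of 10 members, against 50.8% of all genes tested. Nr1d1, Nr1d2 and Per3, which ranged widely in Sham, had I/R ranges smaller than those of most genes, since only 12.2%, 12.6% and 15.1% of the genes tested had a smaller one. Cry1 was the exception, with an I/R range above that of 92.4% of the genes tested. Others also stayed wide beside genes in general, as the I/R range of Dbp exceeded 93.7% of them, that of Arntl 80.9% and that of Clock 74.6%. Counting error was at most 0.20 on the log2 scale in any sample, whereas the log2 SD between Sham rats ran from 0.26 for Per2 to 1.48 for Npas2.

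**Figure D3:**
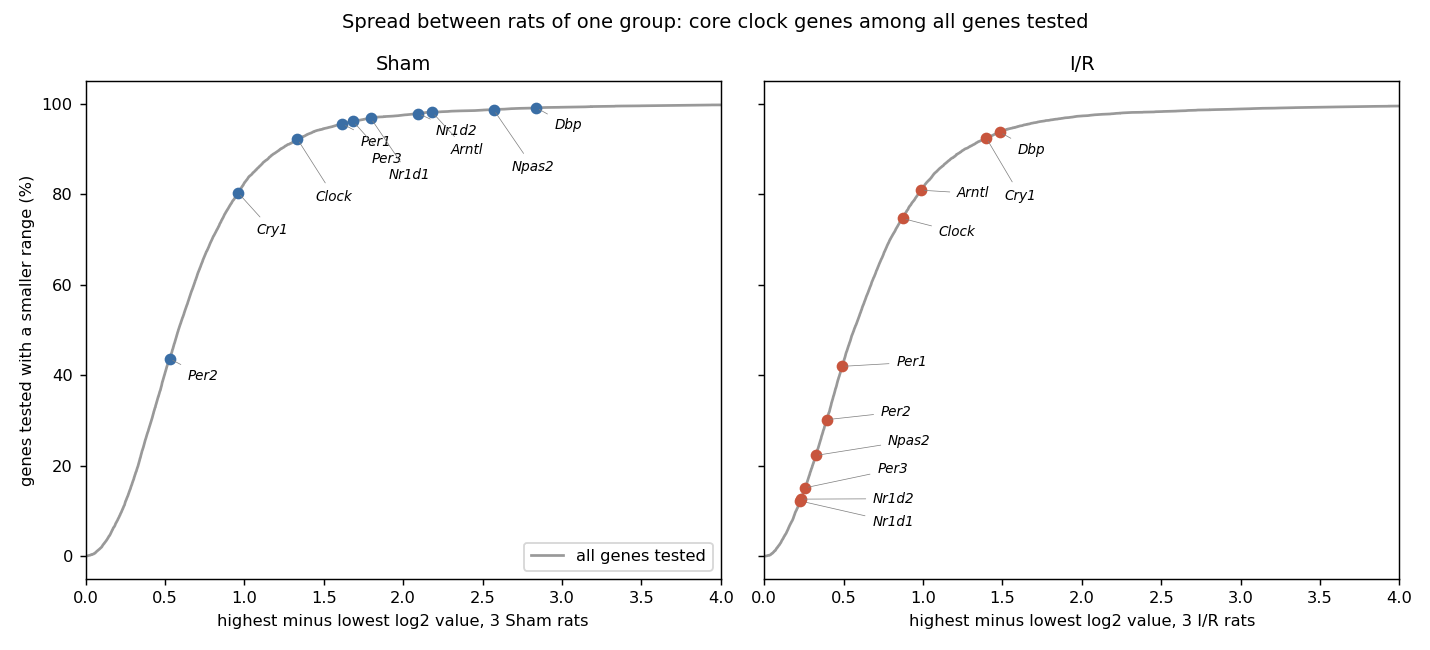
Range between the 3 rats of a group on the log2(FPKM + 0.1) scale (x axis) against the percentage of the 10942 genes tested that have a smaller range (y axis), with Sham in the left panel and I/R in the right. In Sham all members but Per2 lie in the upper part of the curve, whereas in I/R Nr1d1, Nr1d2 and Per3 lie near its foot.

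The Sham rats differed in which members were high. Sham 2 was the highest Sham rat for the activators Arntl, Clock and Npas2 and for Cry1, and the lowest for Per2, Per3, Nr1d1, Nr1d2 and Dbp. Sham 3 was the highest for Per3, Nr1d1, Nr1d2 and Dbp and the lowest for Arntl, Per1 and Cry1. Over all genes tested Sham 2 was the highest Sham rat for 56.4% and the lowest for 13%, and Sham 3 was the highest for 15.8% and the lowest for 44.3%. Of the 10 members, 4 were highest and 5 lowest in Sham 2, and 4 were highest and 3 lowest in Sham 3. Outside the members, Sham 2 was the highest Sham rat for 7 of 12 tested genes of the further clock list and the lowest for 4. These 4 were Ciart at 1.24, 0.212 and 0.662 FPKM in Sham rats 1, 2 and 3, Tef, a relative of Dbp, at 5.69, 2.30 and 6.13 FPKM, Bhlhe41, and Bhlhe40, in which Sham 1 and Sham 2 were level at 2.03 FPKM.

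Members were also compared with each other within each sample, which removes the scale of the library, in 8 pairs chosen with results of these data known. For Nr1d1 minus Arntl and Dbp minus Arntl the separation of the groups follows from the single genes above, so these pairs are given as a description with no test. Nr1d1 minus Arntl on the log2 scale was 0.29, −1.71 and 2.27 in Sham rats 1, 2 and 3, and 4.06, 3.06 and 3.16 in I/R rats 1, 2 and 3. Sham 3 was the Sham rat nearest to the I/R rats, and the group means differed by 3.15, or by 2.15 without Sham 2. Dbp minus Arntl was 2.21, −1.20 and 3.82 in Sham rats and 6.53, 4.06 and 4.96 in I/R rats, a difference of means of 3.58. Here I/R 2 lay close to Sham 3, and without Sham 2 the difference of means was 2.17.

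The pairs within one branch of the loop are not fixed by the single genes in this way. Per1 minus Per2 was 0.55, 1.01 and −0.81 in Sham rats and 2.09, 1.52 and 1.81 in I/R rats, so Per1 exceeded Per2 in every I/R rat by more than in any Sham rat. Nr1d1 minus Nr1d2 was −1.34, −0.66 and −0.96 in Sham rats and 0.47, 0.23 and 0.07 in I/R rats. Nr1d1 was thus below Nr1d2 in all Sham rats and above it in all I/R rats, with a difference of means of 1.24. This was the pair with the smallest spread within the Sham group, an SD of 0.34.

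Among the activators, Npas2 minus Clock was −0.25, 0.99 and −0.76 in Sham rats and −1.42, −1.59 and −1.04 in I/R rats, lower in all I/R rats. Clock minus Arntl was −0.91, −1.38 and −0.0045 in Sham rats and 1.27, 0.58 and 0.022 in I/R rats, and I/R 3 was barely above Sham 3. Per3 minus Per1 and Cry1 minus Per2 overlapped between the groups, with differences of means of −1.26 and 0.43. Leaving out 1 rat moved Per3 minus Per1 between −1.98 (without Sham 2) and −0.37 (without Sham 3), and Cry1 minus Per2 between 0.08 (without I/R 1) and 0.88 (without I/R 2). Of the 6 pairs not fixed by the single genes, 4 did not overlap. Each of the 4 gave an exact two-sided permutation p of 0.1, and 0.15 after Benjamini-Hochberg adjustment over the 6 pairs. In this design 0.1 is the smallest p and follows from the separation itself, so the test cannot decide whether these pairs differ. Each of the 4 holds a member that separated the groups alone (Per1, Nr1d1, Npas2 or Arntl), as does Per3 minus Per1, which overlapped. The share of other gene pairs that separate the groups was not computed.

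**Figure D4:**
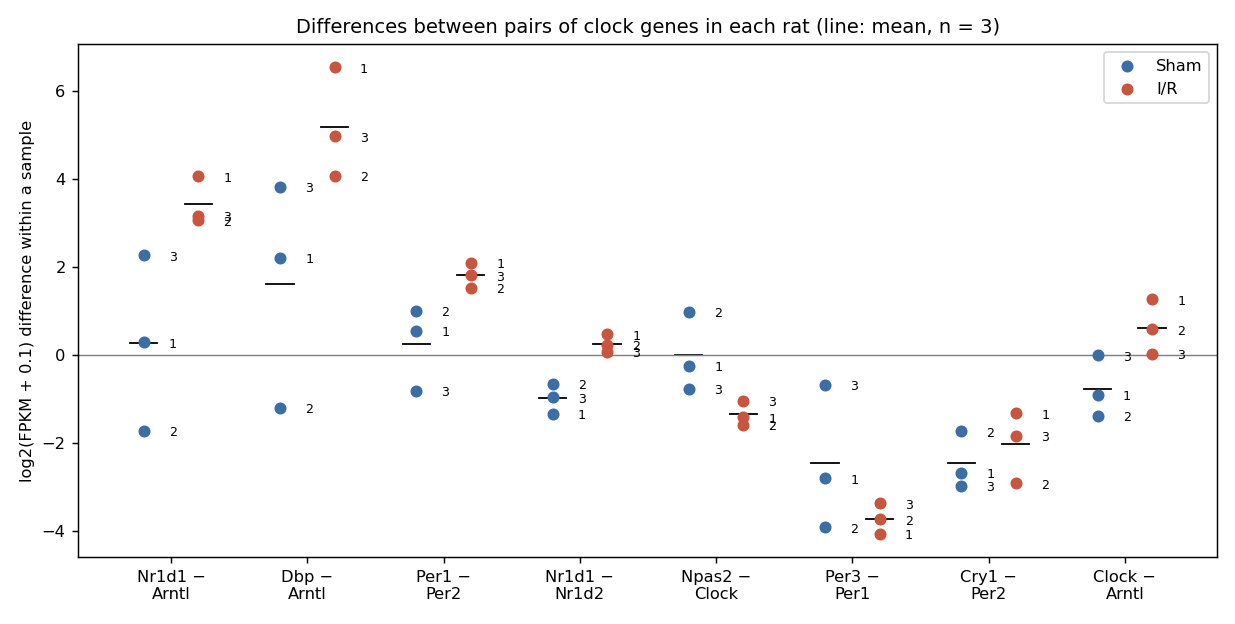
Difference between 2 clock genes within each rat, in log2 units, for 8 pairs, with 1 point per rat labelled by replicate number and a line at the group mean of 3 samples. Nr1d1 minus Nr1d2 is below 0 in all Sham rats and above 0 in all I/R rats, and Per3 minus Per1 and Cry1 minus Per2 overlap.

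The 3 genes whose profile over the 6 samples was most like that of Nr1d1, by the root mean square difference of centred log2 values, were Tifa (0.30), Dusp5 (0.30) and Cmtm5 (0.32). Those most like Arntl were Lpin3 (0.30), Plk1 (0.30) and the gene with the identifier ENSRNOG00000064449 (0.32). These distances describe likeness over 6 samples that share libraries, and carry no test.

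Among the further genes of the clock loop, the repressors Ciart, Bhlhe40 and Bhlhe41 rose in I/R. Of 19 listed genes 12 were tested, 7 were higher in I/R and 0 lower, beside 25.5% and 7.36% of all genes, and their median log2 fold change was 0.92 beside 0.29 for all genes. Ciart, which encodes a repressor of the BMAL1 pair, was at 6.81, 3.39 and 5.69 FPKM in I/R against the Sham values given above. Its log2 fold change was 2.93 (SE 0.48), with a limma adjusted p of 0.0037. Bhlhe40, which encodes DEC1, a repressor that competes for E-boxes, was at 2.03, 2.03 and 3.17 FPKM in Sham and at 23.6, 15 and 15.7 FPKM in I/R. The separation was several times the spread within either group, with a log2 fold change of 2.86 (SE 0.27) and a limma adjusted p of 0.00051.

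Bhlhe41, the relative encoding DEC2, had a log2 fold change of 2.11. The kinases that phosphorylate clock proteins were called higher too, namely Csnk1e at 1.29, Gsk3b at 1.08 and Csnk1d at 0.76 on the log2 scale. Nfil3, whose product opposes DBP at D-boxes, was called with a log2 fold change of 1.08. Not called were Fbxw11 at 0.69, Tef at 0.59, Cry2 at 0.46 and Btrc at 0.52 on the log2 scale. Arntl2, Rora, Rorb, Hlf, Timeless and Fbxl21 were among those below the filter on low values.

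Genes commonly read as outputs of the cardiac or general clock gave 5 called higher and 0 lower of 13 tested, beside 25.5% and 7.36% of all genes, with a median log2 fold change of 0.53 beside 0.29. Dgat2, an enzyme of triglyceride synthesis, had a log2 fold change of 2.11, Usp2, a deubiquitinase, of 1.56, and Por, the cytochrome P450 reductase, of 1.35. Kcnip2, a subunit of the transient outward potassium channel, had one of 1.30 and Nampt, the rate-limiting enzyme of NAD salvage, of 1.11. Dgat2 was at 2.96, 0.682 and 0.807 FPKM in Sham and at 5.95, 5.88 and 4.75 FPKM in I/R. In Kcnip2 and Usp2 the I/R mean was carried by I/R 1. Kcnip2 was at 34.0, 35.6 and 26.0 FPKM in Sham and at 163, 53.4 and 54.2 FPKM in I/R. Usp2 was at 2.16, 1.08 and 0.971 FPKM in Sham and at 7.35, 2.40 and 3.81 FPKM in I/R. Klf15, a cardiac regulator of metabolism under clock control, was not called at 0.22 (95% CI −0.36 to 0.80), nor was Pdk4 at 0.42, Marveld1 at 0.42 or Tspan4 at −0.28. With the replicate block Ucp3, a mitochondrial uncoupling protein, was called lower (log2 fold change −1.10, limma adjusted p = 0.042). Lonrf3 was below the filter on low values, and Tsc22d3 was not analysed here.

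A list drawn up around the signals that act on Per1 acutely, namely cyclic AMP and glucocorticoids, gave 5 called higher and 0 lower of 10 tested, beside 25.5% and 7.36% of all genes. Its median log2 fold change was 1.40 beside 0.29. The list also holds general immediate early genes, and the activity of either signal was not tested. Fos, an immediate early gene, was at 0.611, 0.530 and 0.420 FPKM in Sham and at 50.7, 8.74 and 9.81 FPKM in I/R, a log2 fold change of 4.74. Nr4a1, an immediate early nuclear receptor, had a log2 fold change of 3.86, Crem, which encodes cyclic AMP responsive repressors, of 1.97, and Sik1, a kinase that restrains CRTC coactivators, of 1.80. Zbtb16, a glucocorticoid target, had one of 1.81. Fkbp5, another glucocorticoid target, at 0.56, Crtc1 at 0.30 and Nr3c1, the glucocorticoid receptor, at −0.25 were not called. Sgk1, a kinase gene induced by glucocorticoids, had a log2 fold change of 0.99 and was called only with the replicate block (limma adjusted p = 0.023). Creb1 and Crtc2 were below the filter on low values, and Dusp1 was not analysed here.

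**Figure D5:**
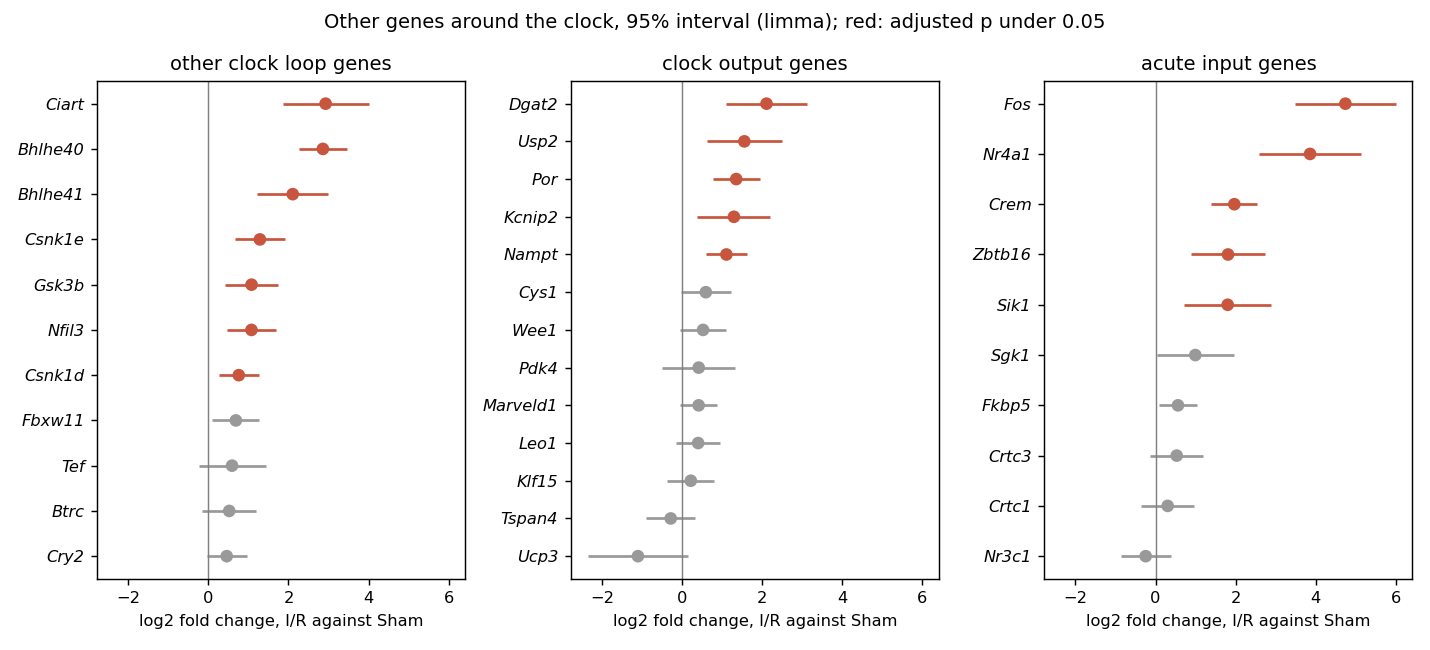
log2 fold change (I/R against Sham, x axis) with its 95% confidence interval from limma (n = 3 samples per group) for tested genes of 3 lists, further clock loop genes, clock outputs and acute inputs, in red where the adjusted p was under 0.05 and in grey otherwise. All genes drawn in red lie above 0, from Csnk1d at 0.76 to Fos at 4.74.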

How the data were processed

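Per the labels, total RNA of 3 Sham and 3 I/R samples of myocardium was sequenced from stranded libraries, and the submitters' processing notes name STAR and HTSeq. The authors deposited 1 table of FPKM values with 30452 rows, of which 7092 had no symbol. Genome build, versions, strand setting and the total divided by are not given in the sources used here. Rows of 1 symbol were summed (28293 genes), and those averaging 0.5 FPKM or more over the samples were kept (10942). Groups were compared by limma 3.58.1 on log2(FPKM + 0.1) (R 4.3.3, lmFit and eBayes with trend), Benjamini-Hochberg adjustment over all genes tested and a threshold of 0.05. Scripts were tested on simulated data.

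Whole fragment numbers came back from the FPKM steps for 99.9% of rows with a value (within 0.01 of a whole number, 17 rows not), and a factor common to a row cannot be seen. The totals were 10097147 to 12482799 fragments in Sham and 14314898 to 18693574 in I/R. The relative depths by which the values had been divided went the other way, from 1 to 1.18 in Sham and from 0.873 to 0.935 in I/R (Sham 1 set to 1). Counting SDs cover counting error only. Voom on these fragments took its library sizes from the relative depths, not from the totals of each sample. It was an alternative chosen after seeing the data.

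The replicate numbers come from the sample titles, and the methods pair no rats. Deviations of same-numbered Sham and I/R rats from their group means correlated by 0.20, 0.12 and 0.12 across genes, but Sham 3 also correlated by 0.12 with I/R 2. The blocked value is therefore given beside a result whose call it changes. The labels do not state that each sample is a separate rat, so the p-values measure the spread between these samples, which may be technical in part.

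The members and lists were chosen with earlier results of these data known. All members were described. From the other lists the genes called, and the 4 others with the highest mean FPKM, were named (some genes of the further clock list enter its counts and median but are not reported here), and Btrc, Ucp3 and the genes below the filter were added after their values were seen. Alternatives were another pseudocount, filter, scaling, threshold, trend, block or row per symbol, and leaving out each rat.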

Additional observations from a re-analysis of the deposited data

How the results depend on the processing

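The calls depended on which rats and which scale were used, and the cause was not tested. Leaving out 1 rat at a time gave 0 to 3 members higher and 0 to 1 lower, 4 to 8 further clock genes higher, 3 to 5 outputs higher and 0 to 1 lower, and 1528 to 2557 of all genes higher and 309 to 881 lower. It gave log2 fold changes of −0.31 to 0.36 for Clock, −0.58 to 0.27 for Per3 and −0.32 to 0.38 for Cry1. Without the mitochondrial mRNAs 0 members were higher and 3 lower, 3 further clock genes higher and 1 lower, 1 output higher and 2 lower, and 793 of all genes higher and 2857 lower, with Clock at −0.72, Cry1 at −0.68 and Nr1d2 at −0.25. Centred on the median, 1 member was higher and 1 lower, 1 further clock gene lower and 1554 of all genes lower (56.5% of calls higher against 77.6%), with Clock at −0.25 and Cry1 at −0.22. Quantile normalization gave 0 members higher and 1 lower, 1 further clock gene lower, 3 outputs higher, and 1441 of all genes higher and 1559 lower (48.0% of calls higher), with Clock at −0.045 and Cry1 at −0.029. Centring on cardiomyocyte markers gave 0 members higher and 8 lower, 0 further clock genes higher and 6 lower, 0 outputs higher and 9 lower, 2 acute inputs higher and 5 lower, and 36 of all genes higher and 8904 lower, with Clock at −2.23, Per1 at −1.07, Cry1 at −2.20, Nr1d1 at −0.47, Nr1d2 at −1.71 and Dbp at −0.039. As TPM 504 of all genes were lower (87.3% of calls higher) and Per3 was at 0.087, and with a pseudocount of 1 Clock was at −0.012. With no filter 1 of 10 members and 3 of 14 outputs were higher, beside 2198 of 19226 genes. A mean of at least 5 FPKM, which leaves fewer genes, gave 3 of 5 members, 1 of 3 further clock genes and 2 of 6 outputs higher. Of the 3784 genes left, 1892 were higher and 166 lower (91.9% of calls higher). At an adjusted p under 0.01, 0 members, 4 further clock genes, 3 outputs, 3 acute inputs and 1185 of all genes were higher and 211 lower. The replicate block gave 1 member and 1 output lower, and it changed no other of these counts by more than 1.5 times. Paired by number, the exact sign-flip p of the within-sample differences was at least 0.25, the smallest possible. Npas2 and Arntl in I/R rest on 51 to 123 fragments per rat, which limits the precision of their folds.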
